A study of Caenorhabditis elegans with 12 samples.

Results

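The genes described here lie on the X chromosome of C. elegans and carry none of 14 name prefixes that mark large families: col-, vit-, nhr-, flp-, nlp-, ugt-, cyp-, clec-, his-, ptr-, grl-, abu-, pqn- and nas-. Of the 17328 genes that the authors' expression table marks as having enough signal (status OK) in at least 1 comparison of strains, 2302 met this rule, and 14902 lie on the autosomes. The prefixes remove 125 X-linked identifiers, of which 105 had status OK. A further 3419 X-linked identifiers outside the prefixes never reached status OK, and 2991 of these were listed at 0 in all 3 strains. The highest mean over the strains among those 3419 was 0.836 FPKM (a fragment count divided by transcript length and by library size), while 397 of the 2302 genes had a mean under 1 FPKM. Of the 2302 genes, 2185 are annotated as protein coding, and 416 share a locus with another of them, so that some values are listed more than once.

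The values come from whole worm extracts of day 1 adults grown at 20 °C. The rde-1(ne219); cpl-1* worms (strain PP2246) carry the integrated transgene hhIs113 on chromosome I, labelled as cpl-1W32AY35A fused to YFP under Pnhx-2 with Pmyo-2::mCherry as a marker, and rde-1(ne219) on chromosome V. They are called rde-1(ne219) mutants from here on, and all of them express cpl-1*. The cpl-1* worms (strain PP1386) carry hhIs113 too, here labelled as cpl-1W32AW35A fused to gfp under Pnhx-2, so the labels give the same allele with different tags and a different substitution (Y35A and W35A). The paper describes CPL-1* as a fusion to YFP with Pmyo-2::mCherry as marker, and the substitutions it writes match neither label. Wild-type worms are strain PP1, a DR subclone of the CB original. Each strain was sampled 3 times, and 3 further samples of cpl-1WT worms were not analysed here. CPL-1* is a misfolding form of a cathepsin L-like protease, the nhx-2 promoter drives it in intestinal cells, and rde-1 encodes an Argonaute protein that carries primary small RNAs in RNA interference triggered by double-stranded RNA. The deposited table holds 1 FPKM value per gene and strain, pooled over the samples of the strain. No spread between samples can be computed from it, the depth behind a value is unknown, and nothing below carries a test or a p-value. Differences are log2 ratios of FPKM + 1, which understate changes, most of all those of genes near or under 1 FPKM. A gene was counted as higher or lower where this log2 ratio was at least 1 in size, among genes with status OK in that comparison. Below, 2-fold means this threshold on the FPKM + 1 scale. cpl-1 itself had 9749 FPKM in rde-1(ne219) mutants, 2920 in cpl-1* and 1377 in wild type, the transgene included. rde-1 had 19.3, 27.97 and 28.3 FPKM in the same order of strains, which checks no label, since ne219 is a lesion within the gene that leaves a transcript.

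C. elegans hermaphrodites have 2 X chromosomes and males have 1. X signal elements, a set of X-linked proteins, repress the switch gene xol-1 in XX embryos, after which the dosage compensation complex, a condensin-like machine, binds both X chromosomes in somatic cells and lowers their transcription. In the germ line the X is silenced for most of development by another route, in which the MES histone methyltransferases take part. Genes of muscle, nerve, intestine and epidermis are common on the X, while genes used throughout the germ line lie mostly on autosomes.

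X-linked genes outside the large families were expressed at lower levels than autosomal genes in every strain. Their median was 6.03 FPKM in rde-1(ne219) mutants, 4.74 in cpl-1* and 4.49 in wild type, against autosomal medians of 12.03, 8.91 and 7.69 FPKM. The X median was thus 0.502 of the autosomal one in rde-1(ne219) mutants, 0.531 in cpl-1* and 0.583 in wild type. The order of these ratios changed with a minimum level, and at a mean of at least 5 FPKM they were 0.651, 0.383 and 0.419. Chromosome V was the autosome nearest to the X, with medians of 7.64, 4.56 and 3.71 FPKM, so that its median lay below that of the X in both strains with intact rde-1. X-linked genes made up 7.14% of the summed FPKM of nuclear genes in rde-1(ne219) mutants, 6.02% in cpl-1* and 5.91% in wild type. At least 100 FPKM was reached by 136, 111 and 112 of them in these strains, and 362, 507 and 586 were under 1 FPKM.

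The comparison of rde-1(ne219) mutants with cpl-1* sets a strain without working RDE-1 beside one with it, where both make the misfolded protein. Genotype and strain coincide here. Loss of rde-1 and other differences between the strains, such as the timing of development, cannot be told apart. Of the 2280 X-linked genes compared, 391 were higher in rde-1(ne219) mutants (17.1%), where 17.7% of all 17146 genes were, and 179 were lower (7.85%), where 10.2% of all genes were. The order of these shares depended on the threshold and the scale. With a pseudocount of 0.1 in place of 1, 654 X-linked genes were higher (28.7%, against 26.2% on the autosomes), and at a log2 ratio of 2 in place of 1, 2.02% of X-linked genes were lower, against 1.74% on the autosomes. The median log2 ratio of the X-linked genes was 0.40 (quartiles -0.09 and 0.80), against 0.09 on the autosomes (quartiles -0.57 and 0.77), and 71.1% of them were above 0, against 53.3% of autosomal genes. The autosomes ranged widely, with medians of -0.10 on I, 0.02 on II, -0.11 on III, 0.22 on IV and 0.32 on V, so the X stood above all 5 but near V. The median of all genes was 0.16 in this comparison. Relative to it, 295 X-linked genes were higher (12.9%, against 13.5% of all genes) and 218 lower (9.56%, against 14.3%). The X-linked genes that the prefixes leave out had 32 higher and 16 lower among 104, with a median of 0.64.

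**Figure D1:**
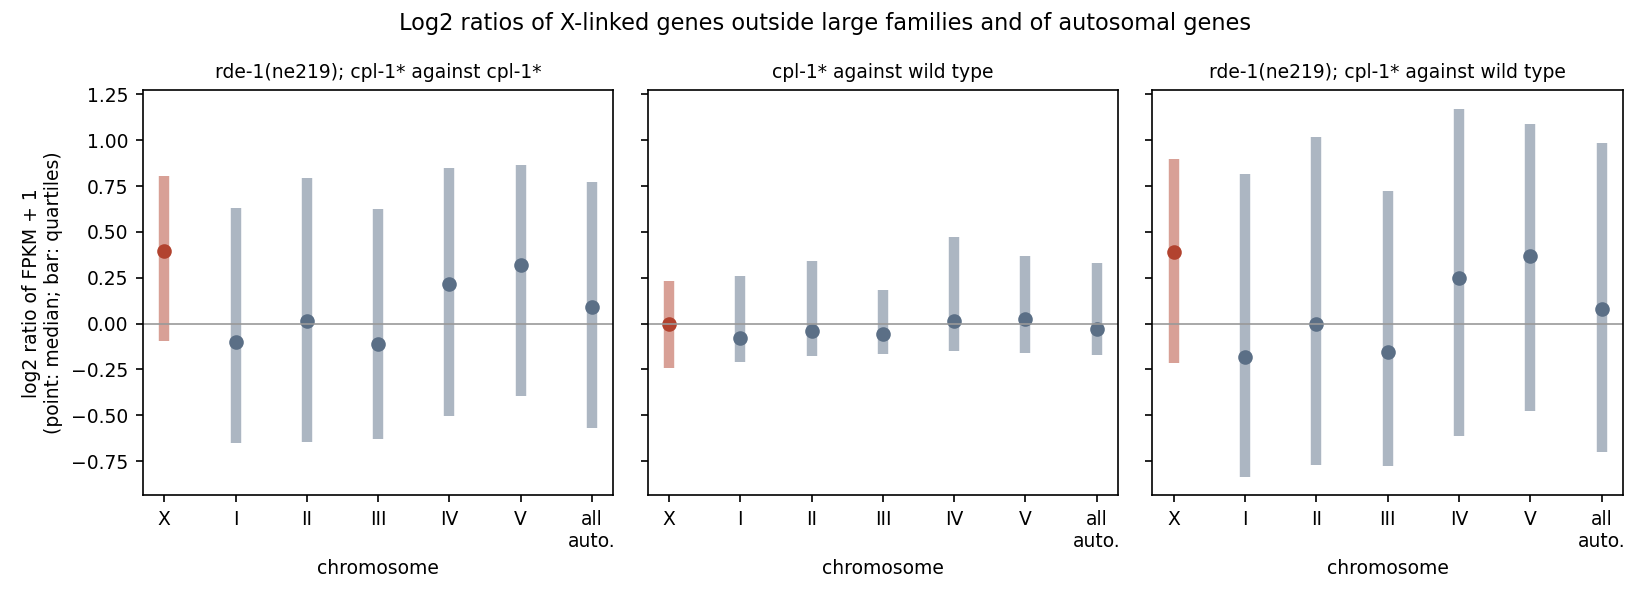
Median log2 ratio of FPKM + 1 (points) with quartiles (bars) of X-linked genes outside large families and of the genes of each autosome, in the 3 comparisons of strains. In rde-1(ne219) mutants against cpl-1* the X median of 0.40 was above those of autosomes I to V, which ran from -0.11 to 0.32, and in cpl-1* against wild type all medians lay near 0.

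The contrast between X and autosomes depended on the level of expression. Among genes with a mean of 20 to 100 FPKM over the strains, 366 X-linked genes had a median log2 ratio of 0.45, with 19.7% higher and 8.47% lower, whereas 4480 autosomal genes had a median of -0.51, with 7.23% higher and 17.3% lower. Among genes of at least 100 FPKM the medians were 0.19 on the X (116 genes) and -0.24 on the autosomes. From 1 to 20 FPKM the order was turned, and under 1 FPKM the medians were close. From 5 to 20 FPKM the medians were 0.34 on the X and 0.46 on the autosomes, from 1 to 5 FPKM they were 0.51 and 0.66, and under 1 FPKM they were 0.37 and 0.34. The 20 to 100 FPKM class held 30.4% of the autosomal genes compared and 16.1% of the X-linked ones. Oocyte and eggshell genes, none of them X-linked in the list used here, were mostly lower in the same comparison. Of 15 such genes (oma-1, oma-2, puf-5, puf-11, rme-2, egg-1, egg-2, cbd-1, cpg-1, cpg-2, chs-1, perm-2, perm-4, cgh-1 and gld-1) 14 were lower, with a median of -2.10, where 10.2% of all genes were lower. Their summed level was 2436 FPKM in rde-1(ne219) mutants, 9290 in cpl-1* and 9755 in wild type, and none was at 0. Of 8 sperm genes 3 were higher, where 17.7% of all genes were, with a median of 0.86 and sums of 187, 92.1 and 41.7 FPKM. In whole worms, fewer cells of a type and less RNA per cell cannot be told apart, and the part of these cell types in the X-linked values was not tested.

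**Figure D2:**
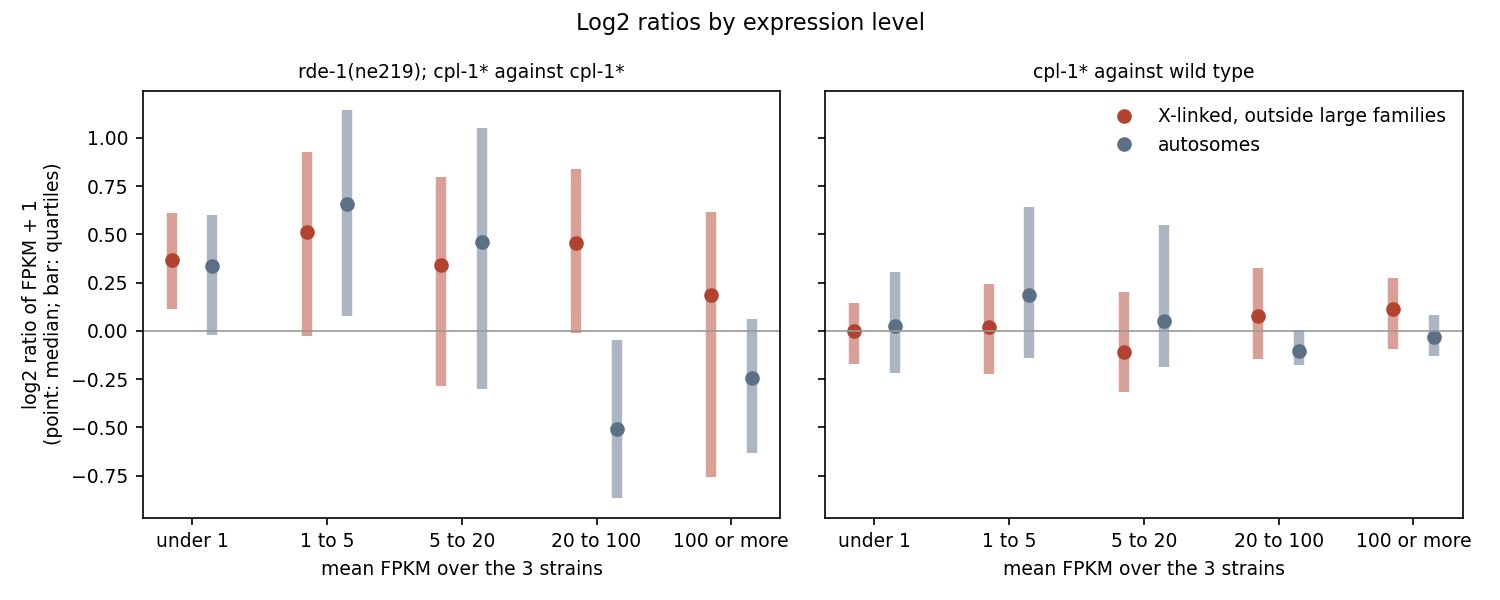
Median log2 ratio of FPKM + 1 (points) with quartiles (bars) of X-linked genes outside large families and of autosomal genes, by mean FPKM over the 3 strains, in 2 comparisons. In rde-1(ne219) mutants against cpl-1* the X and the autosomes were furthest apart from 20 to 100 FPKM, with medians of 0.45 and -0.51.

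Genes of the cuticle and of the epidermis that secretes it stood among the largest increases in rde-1(ne219) mutants over cpl-1*. Of 10 X-linked genes in a cuticle and epidermis list, 9 were higher, with a median log2 ratio of 2.55, against 17.1% higher and a median of 0.40 over all X-linked genes compared. The collagens dpy-3, dpy-7 and dpy-8, which form the furrows of the cuticle and escape the col- prefix through their names, were among them. dpy-8 (X:5148175-5150476) had 91.2 FPKM in rde-1(ne219) mutants, 8.67 in cpl-1* and 0.422 in wild type, a log2 ratio of 3.25 between the first pair. dpy-7 (X:7536417-7537792) had 94.2, 9.58 and 2.36 FPKM (log2 ratio 3.17), and dpy-3 had 86.8, 10.6 and 2.19 FPKM (2.91). All 3 collagens thus stood highest in rde-1(ne219) mutants and lowest in wild type. The extracellular leucine-rich repeat proteins sym-1 and let-4, which shape the apical matrix of epithelia, were at 92.1 and 13.5 FPKM in rde-1(ne219) mutants, 12.8 and 2.12 in cpl-1*, and 10.96 and 1.72 in wild type. The molting gene acn-1, related to angiotensin-converting enzyme, had 51.5, 8.08 and 1.97 FPKM (2.53). The mucin-like dpy-6, the patched-related daf-6 and the MAP kinase sma-5 were higher by log2 ratios of 2.56, 1.71 and 1.56. Only lon-2, a glypican that limits body size, stayed within 2-fold, with 11.6, 10.04 and 11.2 FPKM.

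The same order of strains held for a cluster of lipocalin-related genes, lpr-3, lpr-6, lpr-5 and lpr-4, which lie side by side on the plus strand (X:11057372-11066811, 9.44 kb, coordinates on WBcel235 as everywhere here). lpr-3 had 109.7 FPKM in rde-1(ne219) mutants, 12.6 in cpl-1* and 3.92 in wild type, lpr-6 had 79.3, 6.99 and 1.48, lpr-5 had 74.3, 7.38 and 1.09, and lpr-4 had 104.7, 10.9 and 1.09. Their log2 ratios between rde-1(ne219) mutants and cpl-1* ran from 3.02 to 3.33. Lipocalins bind lipids, and lpr proteins of C. elegans act in the apical matrix. C05G5.7 also belonged to the 8 largest increases, with 20.2, 1.25 and 0.0600 FPKM. The remaining entry among these 8, the noncoding F01G12.19, was listed at 0 in both strains with intact rde-1 and at 27.3 FPKM in rde-1(ne219) mutants. It is a short RNA annotated at X:16371115-16371212, and its deposited locus is the one listed for the nerve gene ace-1 (4.99, 3.54 and 3.20 FPKM). Markers of epidermis and molt outside the X were higher in the same comparison, namely all 9 (rol-6, sqt-1, mlt-10, mlt-11, noah-1, noah-2, bli-1, bli-2 and qua-1), with a median of 2.75 and sums of 1355 FPKM in rde-1(ne219) mutants, 176 in cpl-1* and 31.4 in wild type. Of all genes compared, 17.7% were higher. The paper took rol-6 and sqt-1 from transcripts it found higher in this comparison, so these markers were not chosen independently of it. The part of the 9 markers in the X-linked values was not tested.

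**Figure D3:**
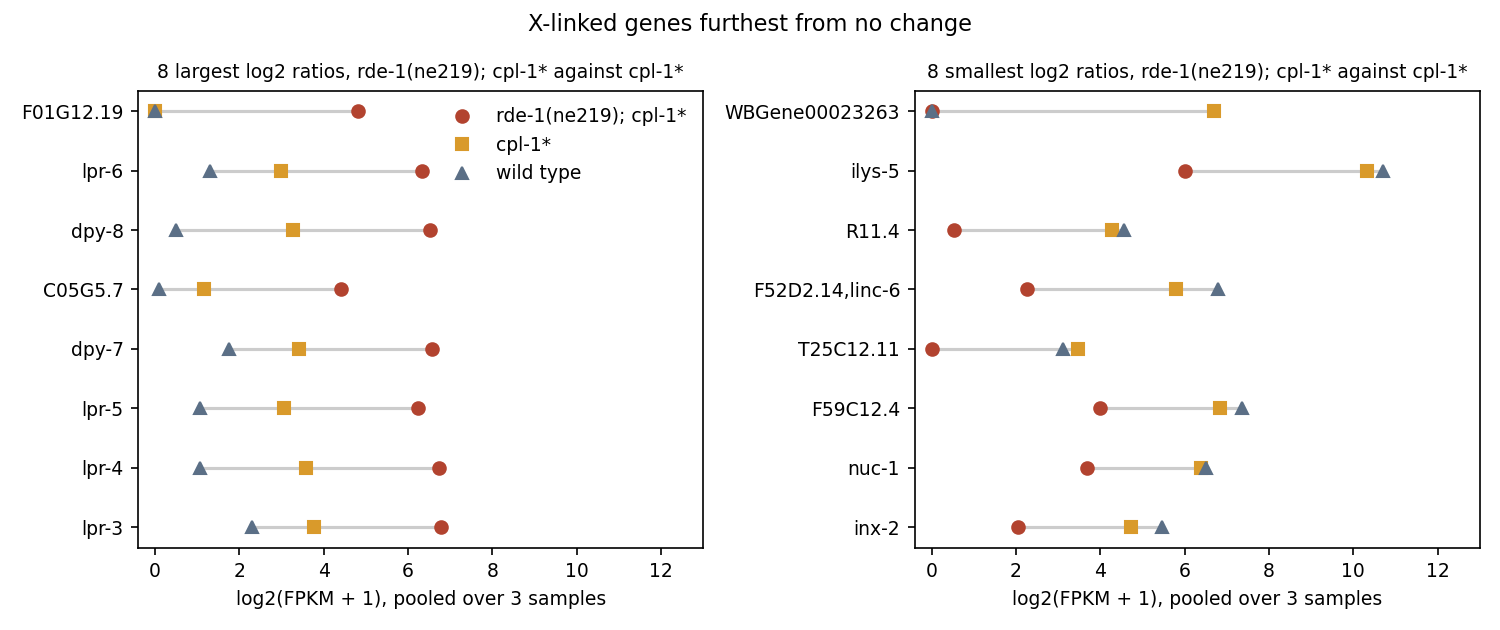
FPKM on a log2(FPKM + 1) axis of the 8 X-linked genes with the largest (left) and the 8 with the smallest (right) log2 ratio in rde-1(ne219) mutants against cpl-1*, with 1 pooled value per strain. The lpr and dpy genes were lowest in wild type and highest in rde-1(ne219) mutants, and ilys-5, nuc-1 and inx-2 were lowest in rde-1(ne219) mutants.

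Among the genes that were lower in rde-1(ne219) mutants than in cpl-1*, the lysozyme gene ilys-5 (X:6533493-6536840), which encodes a protein that cleaves bacterial cell walls, had 63.7 FPKM in rde-1(ne219) mutants, 1279 in cpl-1* and 1674 in wild type, a log2 ratio of -4.31 against cpl-1*. nuc-1, a DNase II that digests DNA of engulfed cells and of bacteria in the gut, had 11.8, 82.9 and 90.2 FPKM (-2.71). inx-2, a gap junction innexin, had 3.11, 25.6 and 43.1 FPKM (-2.69). These 3 genes were within 2-fold between the strains with intact rde-1 and low in rde-1(ne219) mutants. R11.4 had 0.446, 18.5 and 22.6 FPKM, F59C12.4 had 14.8, 113 and 164 FPKM, and the long noncoding linc-6 had 3.78, 54.5 and 109 FPKM. The other entries among the 8 largest decreases are short RNAs. The pseudogene WBGene00023263, 82 bases long, was listed at 103 FPKM in cpl-1* and at 0 in both other strains, and T25C12.11, 108 bases long, was listed at 0 in rde-1(ne219) mutants, at 10.2 FPKM in cpl-1* and at 7.66 in wild type.

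The X signal elements, through which the number of X chromosomes is read, and their target xol-1 had lower values in rde-1(ne219) mutants than in cpl-1*. Of the 3 X signal elements and xol-1, 2 were lower by 2-fold or more, 0 were higher, and the median log2 ratio was -1.04. Over all X-linked genes compared, 7.85% were lower and 17.1% higher, with a median of 0.40. ceh-39, a ONECUT homeodomain protein that represses xol-1, had 2.82 FPKM in rde-1(ne219) mutants, 16.0 in cpl-1* and 21.3 in wild type (-2.15). sex-1, a nuclear receptor with the same target, had 5.81, 18.6 and 29.5 FPKM (-1.53). The RNA-binding protein fox-1 had 6.76, 10.3 and 15.7 FPKM, and xol-1, close to the floor, had 0.531, 0.842 and 1.39 FPKM, both within 2-fold of cpl-1*. All 4 genes were lowest in rde-1(ne219) mutants and highest in wild type.

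Of the 10 genes of the dosage compensation complex in the list, 2 are X-linked. sdc-1, a zinc finger protein that helps to load the complex, had 2.26, 7.20 and 9.59 FPKM (-1.33), and sdc-2, the hermaphrodite protein that brings the complex to the X, had 1.54, 1.496 and 1.99 FPKM (0.02). Over the whole complex 9 of 10 genes were below 0, with a median of -0.55, and sdc-1 was the only one past 2-fold. Of all genes compared, 10.2% were lower and 17.7% higher. Levels in the complex ran from those of sdc-2 to those of dpy-30 (173, 260 and 282 FPKM), so its genes fall in several level classes. The autosomal medians were 0.66 from 1 to 5 FPKM, 0.46 from 5 to 20, -0.51 from 20 to 100 and -0.24 at 100 or more. The 6 autosomal genes that act on the X or on active genes in the germ line (mes-2, mes-3, mes-4, mes-6, xnd-1 and met-1) were all below 0, with a median of -1.01, and 3 of them were lower by 2-fold or more. Of the 10 downstream sex determination genes, all autosomal, fem-3, fog-2 and tra-2 were lower, and fog-3, which directs germ cells to become sperm, was higher (9.38 FPKM in rde-1(ne219) mutants, 1.71 in cpl-1* and 0.923 in wild type).

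**Figure D4:**
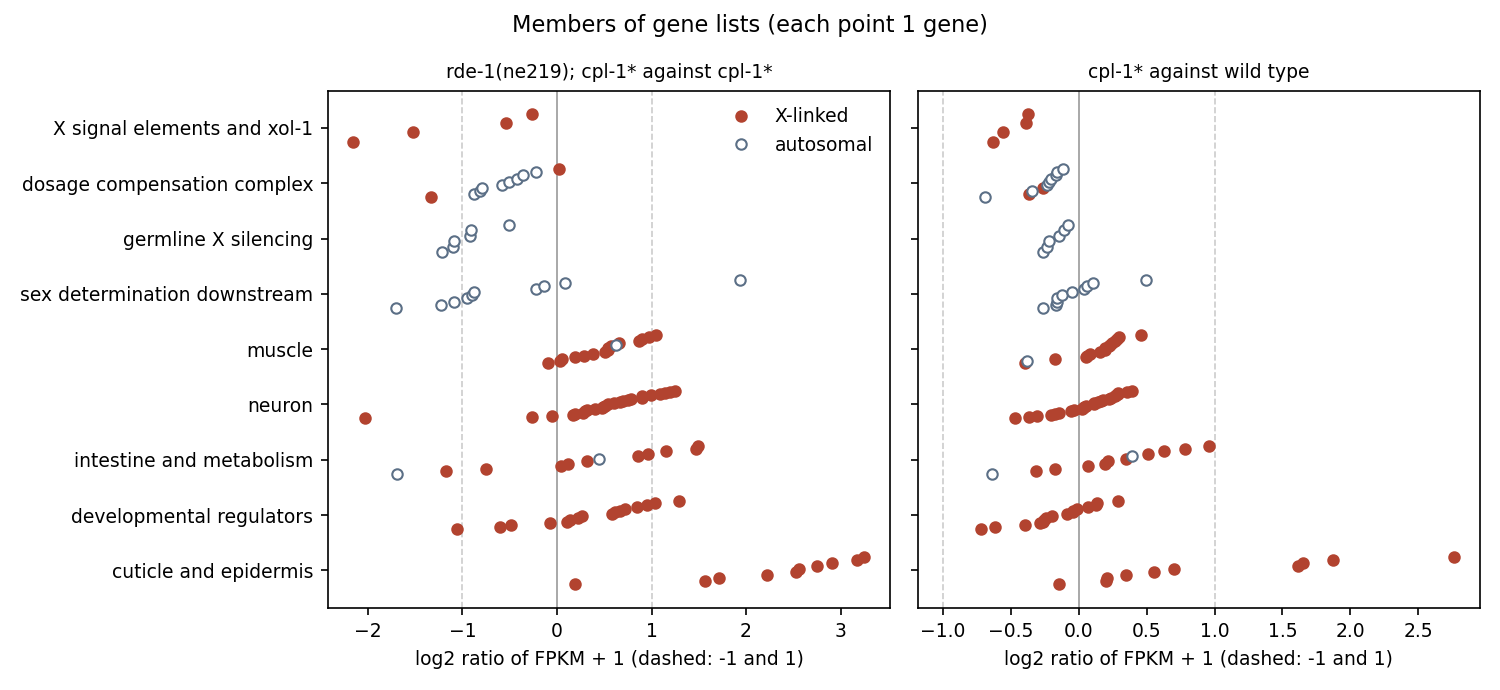
Log2 ratio of FPKM + 1 of each member of the gene lists, in rde-1(ne219) mutants against cpl-1* (left) and in cpl-1* against wild type (right), for X-linked genes (filled) and autosomal genes (open). On the left, 9 of 10 cuticle and epidermis genes lay past 1, and all 4 points of the X signal elements and xol-1 lay below 0.

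Lists of muscle, nerve, intestinal and developmental genes had medians between 0.43 and 0.58 in rde-1(ne219) mutants against cpl-1*. Over all X-linked genes compared the median was 0.40, with 71.1% above 0, 17.1% higher and 7.85% lower, and the counts of the nerve and developmental lists lay near these shares. Of 15 X-linked muscle genes, 14 were above 0 with a median log2 ratio of 0.54, and 1 was past 2-fold, the Twist-like factor hlh-8 (2.85, 0.866 and 1.46 FPKM). Among abundant components of the thin filament, act-4, an actin, had 1404, 1378 and 1181 FPKM, unc-27, a troponin I, had 980, 945 and 827 FPKM, and tnt-2, a troponin T, had 524, 558 and 464 FPKM. mup-2, another troponin T, had 493, 332 and 242 FPKM (0.57). The pharyngeal myosin myo-2 had 38.8, 20.3 and 19.1 FPKM (0.90). Body wall muscle markers had 0 of 6 past 2-fold, with a median of 0.26.

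Of 25 X-linked nerve genes compared, 4 were higher and 1 lower, with a median of 0.54. The 4 were the netrin unc-6, which guides axons, the gap junction innexins unc-7 and unc-9, and the stomatin-like unc-1, which acts with them. unc-1 had 22.3 FPKM in rde-1(ne219) mutants, 8.76 in cpl-1* and 6.45 in wild type (1.25). The 1 lower gene was tbh-1, the enzyme that makes octopamine, with 28.8, 121 and 134 FPKM (-2.03). It is known from nerve cells and also from the sheath cells of the gonad. The touch receptor genes mec-2 and mec-7, a stomatin-like protein and a beta-tubulin, fell just short of the threshold with log2 ratios of 0.90 and 0.99. In FPKM, mec-2 had 5.21 in rde-1(ne219) mutants and 2.33 in cpl-1*, and mec-7 had 22.3 and 10.7. Neuronal markers outside the X had 1 of 7 past 2-fold and a median of 0.93.

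Of 10 X-linked intestinal and metabolic genes, 3 were higher and 1 lower, with a median of 0.58. elt-2, the GATA factor that maintains intestinal fate, had 26.6, 11.4 and 9.67 FPKM (1.15), and ifd-1, an intermediate filament of the intestine, had 33.0, 11.3 and 5.33 FPKM (1.47). daf-9, a cytochrome P450 that makes the steroid hormone dafachronic acid outside the intestine, had 4.45, 0.945 and 0.860 FPKM (1.49). fah-1, the last enzyme of tyrosine breakdown, shares its entry with asp-14 and had 91.3, 207 and 133 FPKM (-1.17). The peptide transporter pept-1 had 73.7, 59.1 and 41.1 FPKM (0.32). The 5 intestinal markers outside the X had 1 past 2-fold and a median of 0.72.

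Of 16 entries for developmental regulators, 2 were higher and 1 lower, with a median of 0.43. egl-15, the FGF receptor, had 7.73, 2.58 and 4.51 FPKM (1.29), and lin-2, a scaffold protein of vulval signalling, had 7.47, 3.12 and 3.26 FPKM (1.04). The joint entry of lin-15A and lin-15B, which repress vulval and germline genes, had 9.06, 19.9 and 23.8 FPKM (-1.06). The timing factor lin-14 had 14, 6.74 and 6.97 FPKM (0.95), and the nuclear receptor daf-12, which binds dafachronic acid, had 11.5, 5.98 and 5.41 FPKM (0.84).

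The 10 X-linked genes with the highest mean level split 3 ways. Past 2-fold and higher in rde-1(ne219) mutants were the ribosomal protein gene rpl-11.2, with 1765, 782 and 709 FPKM (1.17), and pdi-2, a protein disulfide isomerase that also serves collagen hydroxylation in the ER, with 1342, 580 and 440 FPKM (1.21). ilys-5 and F23A7.8 (226, 1010 and 1177 FPKM, -2.16) were lower. mlc-2 (a myosin light chain, 1748, 1444 and 1327 FPKM), F46H5.3, act-4, spp-5, spp-14 (saposin-like proteins) and unc-27 were within 2-fold. Further X-linked genes of ER folding and retrieval, named after their values were seen, were pdi-6, with 870, 232 and 146 FPKM (1.90), the BiP homologue hsp-3, with 1264, 429 and 342 FPKM (1.56), and the KDEL receptor erd-2, with 122, 50.9 and 42.6 FPKM (1.24). Over all X-linked genes compared, 17.1% were higher. X-linked ER genes were not counted as a set, so these examples do not show how the others changed.

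The genes that were lower in rde-1(ne219) mutants than in cpl-1* lay more often towards the ends of the X than near its left middle. In 2-Mb windows the share higher in rde-1(ne219) mutants ran from 10.8% in the leftmost window to 19.9% in the third, and the share lower from 3.81% in the fourth to 14% in the last, with 10.3% in the leftmost. Median log2 ratios ran from 0.22 in the last window to 0.51 in the sixth. Median levels differed little between windows, from 5.0 to 6.37 FPKM averaged over the strains.

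**Figure D5:**
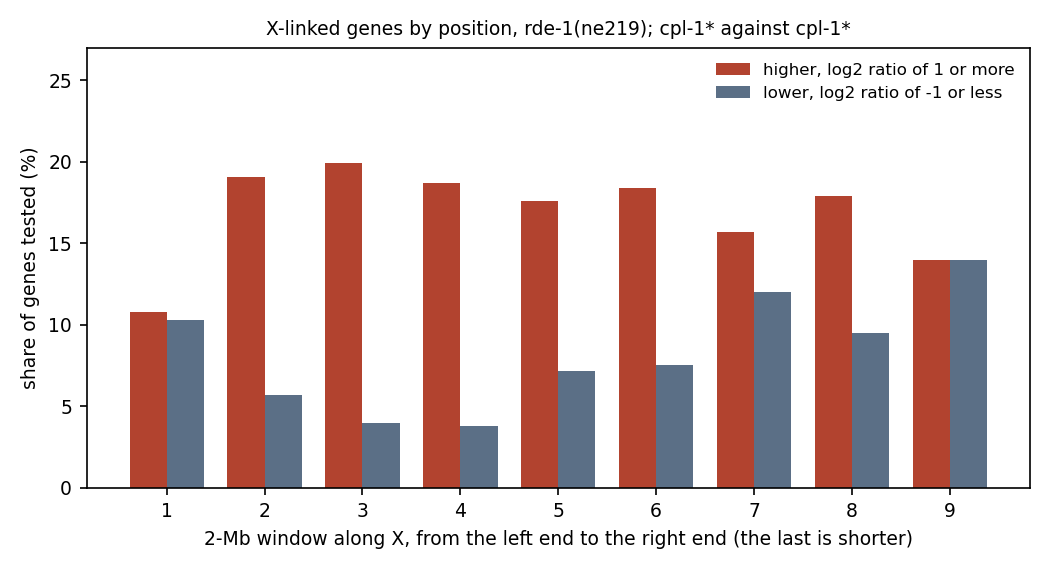
Share of X-linked genes that were higher or lower by a log2 ratio of at least 1 in rde-1(ne219) mutants against cpl-1*, in 9 windows of 2 Mb along the X (the last shorter). Lower genes were scarcest in the third and the fourth window (3.99% and 3.81%) and most frequent in the last (14%).

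Genes past 2-fold also lay next to each other, on the X more clearly the lower than the higher ones. Of 352 loci that were higher in rde-1(ne219) mutants, 79 (22.4%) were followed along the X by another higher locus, where 17.1% of all X-linked loci compared were higher. Of 171 lower loci, 48 (28.1%) were followed by a lower one, where 8.32% of loci were lower. On the autosomes these shares were 29.7% (17.7% higher in all) and 21.2% (11.2% lower in all). Adjacent here means next in order among the loci compared. Runs of at least 3 adjacent higher loci were found too, the longest of 4 loci, among them the lpr cluster. Of 12 runs of at least 3 adjacent lower loci, the longest spanned 6 loci from mes-1 to ule-5 (X:11857478-11884043), with log2 ratios from -2.14 to -1.75. mes-1, a receptor-like protein needed for the division that founds the germ line, had 1.33 FPKM in rde-1(ne219) mutants, 6.83 in cpl-1* and 9.21 in wild type, and ule-5, a uterine lumen protein, had 197, 871 and 927 FPKM.

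Of the 12 lower runs, 2 hold genes for MEG proteins, intrinsically disordered components of embryonic P granules. These are the run of ekl-5, meg-2 and meg-1 (X:13914806-13929634) and a run of 4 loci from WBGene00023401 to meg-4. meg-1 had 12.1, 69.1 and 81.7 FPKM (-2.41), meg-2 had 2.03, 10.4 and 14.6 FPKM (-1.92), and meg-4 had 2.68, 16.0 and 20.2 FPKM (-2.21). meg-3, which is in no such run, had 4.75, 28.7 and 37.9 FPKM (-2.37). The forkhead genes fkh-3 and fkh-4 had 0.494 and 0.161 FPKM in rde-1(ne219) mutants, 5.43 and 3.84 in cpl-1*, and 7.52 and 5.11 in wild type. A run of dot-1.4, nfya-1 and lsd-1 holds the histone demethylase lsd-1, with 1.90, 7.10 and 10.8 FPKM (-1.48). The genes of these runs and meg-3 were named after their values were seen.

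The comparison of cpl-1* with wild type sets worms with the transgene beside worms without it, where rde-1 is intact in both. Misfolding of CPL-1*, added cpl-1 expression and strain background cannot be told apart in it. The paper also compared cpl-1* with cpl-1WT worms, which were not analysed here. Of the 2147 X-linked genes compared, 96 were higher in cpl-1* (4.47%), where 8.75% of all 16395 genes were, and 29 were lower (1.35%), where 1.13% of all genes were. The median log2 ratio was 0.00 on the X (quartiles -0.24 and 0.23) and -0.03 on the autosomes. The share of higher genes was 9.34% over the autosomes and ran from 5.89% on III to 13.4% on IV. Over all levels the X thus had a smaller share than each autosome. The gap depended on level and was widest from 5 to 20 FPKM, with 5.58% on the X and 16.7% on the autosomes. From 20 to 100 FPKM the order was turned, with 7.63% on the X and 5.67% on the autosomes. This comparison shares the cpl-1* values with the one above. The lpr cluster was the only run of at least 3 adjacent higher loci on the X here, with log2 ratios from 1.47 to 2.51.

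Of the 10 X-linked cuticle and epidermis genes, 4 were past 2-fold above wild type in cpl-1*. These were dpy-8 (log2 ratio 2.77), dpy-3 (1.87), dpy-7 (1.65) and acn-1 (1.61), and 6 of the 9 epidermis and molt markers were higher too, with a median of 2.02. Other genes had the 8 largest log2 ratios among those with a mean of at least 5 FPKM. wrt-4, a hedgehog-related warthog protein of the epidermis, had 63.4 FPKM in rde-1(ne219) mutants, 11.5 in cpl-1* and 0.305 in wild type (3.26 between the last pair). dao-4, named for its rise in dauer larvae or ageing adults, had 81.2, 13.3 and 0.163 FPKM (3.62). R02E4.3 had 195, 27.6 and 1.07 FPKM (3.79), Y102A11A.5 had 158, 19.6 and 1.20 FPKM (3.23), and F35B3.4 had 63.7, 11.3 and 0.525 FPKM (3.02). All 5 genes had their highest value in rde-1(ne219) mutants. WBGene00023263, T25C12.12 (99 bases long) and nspc-15, the other entries among these 8, were listed at 0 in wild type.

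The long noncoding RNA tts-1 gave the largest decrease in cpl-1* against wild type. tts-1 (X:1504131-1504841), which associates with ribosomes and is abundant in long-lived mutants, had 86.4 FPKM in rde-1(ne219) mutants, 47.0 in cpl-1* and 707 in wild type (log2 ratio of cpl-1* to wild type -3.88). F53A9.8 had 45.0 FPKM in rde-1(ne219) mutants, 45.4 in cpl-1* and 382 in wild type (-3.05 between the last pair), and the saposin-like spp-2 had 61.2, 52.2 and 206 FPKM (-1.96). For these 3 genes wild type stood apart and the 2 strains with the transgene lay within 2-fold of each other. F09E10.15, an 89-base locus beside tts-1, was listed at 0 in rde-1(ne219) mutants, at 41.1 FPKM in cpl-1* and at 239 in wild type. coel-1, T23E7.6, F25E2.3 and the fatty acid CoA synthetase acs-17 were lower in cpl-1* by log2 ratios between -1.73 and -1.32. The X signal elements and xol-1 were all below 0 here but within 2-fold, with a median of -0.48, and no muscle, nerve, intestinal or developmental gene of the lists was past 2-fold.

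The comparison of rde-1(ne219) mutants with wild type is fixed by the other 2 and adds no measurement. Of 2281 X-linked genes, 477 were higher in rde-1(ne219) mutants (20.9%), where 24.2% of all 17161 genes were, and 239 were lower (10.5%), where 14.5% of all genes were. The order of the higher shares turned at a mean of at least 5 FPKM (21.5% on the X, 19.9% on the autosomes), and with a pseudocount of 0.1 both were 32.5%. The median log2 ratio was 0.39 on the X and 0.08 on the autosomes. Relative to the median of all genes, which was 0.15, 366 X-linked genes were higher (16%, against 21.2% of all genes) and 286 lower (12.5%, against 19.0%). Genes that enter the extremes here alone were F53B1.4, with 103 FPKM in rde-1(ne219) mutants, 13.2 in cpl-1* and 0.936 in wild type, F09F9.2, with 60.4, 7.39 and 0.386 FPKM, and the chitinase cht-1, which was lowest in rde-1(ne219) mutants, with 4.59, 24.5 and 52.1 FPKM.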

How the data were processed

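Total RNA from 4 strains of 3 samples each, 12 in all, was sent for sequencing. The paper does not say how RNA was selected for the libraries. The authors aligned reads with HISAT2 to Ensembl release 91, assembled transcripts with StringTie and quantified FPKM with Cufflinks; the submitters' processing notes name HISAT2 2.1.0, StringTie 1.3.4d, Cuffdiff 2.2.1, FastQC 0.11.7 and WBcel235. The authors deposited FPKM pooled per strain, with no values per sample, so the limma test planned for values per sample was not run. The table's fold change, test statistic, P and q columns hold the authors' own comparisons and were not used. The depth per sample is unknown.

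Log2 ratios of FPKM + 1 were computed with Python 3.11.15, pandas 2.3.3, numpy 2.4.6 and matplotlib 3.10.9, and the counting was tested on simulated data. Genes were counted as identifiers. Coordinates are the deposited loci, counted from 1, with locus lengths, and strands come from Ensembl release 115, in which 2287 of the 2302 genes were found. Genes named are, per comparison, the 8 largest and 8 smallest log2 ratios among those with a mean of at least 5 FPKM, the 10 with the highest mean, and members of gene lists. The members, lists and rules were chosen with earlier results of these data known. Family members with similar sequences can share reads. Alternatives were other pseudocounts, minimum levels, thresholds, status rules, prefix rules, counting by locus, centring on the median of all genes and, added after the data were seen, protein-coding genes only.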

Additional observations from a re-analysis of the deposited data

How the results depend on the processing

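No paired analysis was possible because 1 pooled value stands for each strain, and for the same reason no replicate could be left out. Counts and medians kept within 1.5 times or 0.1 log2 of those reported when each locus was counted once, the X-linked prefix families were kept, the same prefixes were left out on the autosomes, only protein-coding genes or only genes with status OK in all 3 comparisons were used. The comparisons below are rde-1(ne219) mutants with cpl-1*, cpl-1* with wild type, and rde-1(ne219) mutants with wild type, in this order. With a pseudocount of 0.1, 654, 160 and 741 X-linked genes were higher, 67 were lower in cpl-1* relative to wild type, the X medians with rde-1(ne219) mutants were 0.53 and 0.54, and these medians lay 0.42 and 0.45 above the autosomal ones. With no pseudocount, 694, 166 and 749 were higher, 74 were lower in cpl-1* relative to wild type, the medians were 0.55 and 0.56, and the differences 0.43 and 0.48. The X share of higher genes in rde-1(ne219) mutants over cpl-1*, below the autosomal 17.8% with a pseudocount of 1, was above it with 0.1 (28.7% and 26.2%) and with none (30.7% and 27.5%). In rde-1(ne219) mutants over wild type these shares were 32.5% and 32.5% with 0.1 and 33.3% and 33.1% with none. A mean of at least 1 FPKM gave a difference of 0.44 from the autosomes in the last comparison. At least 5 FPKM left 223 and 261 genes higher in rde-1(ne219) mutants than in cpl-1* and wild type, 17 lower in cpl-1*, and differences of 0.59 and 0.64, and the higher shares were then 18.3% on the X and 14.3% on the autosomes over cpl-1*, and 21.5% and 19.9% over wild type. The ratios of the X to the autosomal median FPKM in rde-1(ne219) mutants, cpl-1* and wild type were 0.528, 0.46 and 0.499 at a mean of at least 1 FPKM, 0.651, 0.383 and 0.419 at 5 FPKM, and 0.608, 0.716 and 0.856 with any status. Any status gave medians of 0.28 and 0.26, and centring on all genes gave 0.24 and 0.24. At a log2 ratio of 2, 85, 26 and 160 genes were higher and 46, 4 and 84 lower, and at 0.5, 983, 234 and 998 higher and 325, 165 and 415 lower. In rde-1(ne219) mutants at 2, the lower shares were 2.02% on the X and 1.74% on the autosomes against cpl-1*, and 3.68% and 2.7% against wild type, so the X was above the autosomes there. At 0.5 the higher shares were 43.1% and 34.8% against cpl-1*, and 43.8% and 37.7% against wild type. Among genes named for the size of their change or their level, centring turned the sign of 5 values, all within 2-fold: F46H5.3, act-4 and unc-27 in rde-1(ne219) mutants against cpl-1*, and F46H5.3 and spp-14 against wild type. The causes of these shifts were not tested.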

Other observations

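Annotation terms listed in the deposited table were counted among the X-linked genes in rde-1(ne219) mutants against cpl-1*, where 17.1% of all X-linked genes compared were higher and 7.85% lower, with a median log2 ratio of 0.40. Of 713 genes with the term membrane, 98 were higher (13.7%) and 27 lower (3.79%), with a median log2 ratio of 0.44. Of 162 genes with the term nucleus, 18 were higher (11.1%) and 27 lower (16.7%), with a median of 0.22. Genes of transport had 14 higher and 5 lower of 146. The 759 genes with no term had the largest share of higher genes among the 12 most frequent terms and the genes without one, 22.3%, with 11.5% lower. In cpl-1* against wild type, 22 of 676 membrane genes and 0 of 157 nuclear genes were higher. These are counts without a test.

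Name families with at least 8 X-linked members were counted in the same comparison, and the same shares over all X-linked genes, 17.1% higher and 7.85% lower, apply to them. Of the 16 homeobox genes named ceh, 0 were higher and 4 lower, with log2 ratios from -2.15 to 0.84. Of the 12 neuropeptide receptor genes named npr, 0 were past 2-fold either way and 11 were above 0, with a median of 0.47. All 8 P-glycoprotein transporter genes (pgp) compared were above 0, with a median of 0.89, and 1 was past 2-fold. Of 12 transthyretin-related genes (ttr), 3 were higher and 1 lower, from -2.37 to 1.91. The 17 nspc genes, which are similar in sequence and may share reads, had 4 higher and 1 lower.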
